A study of Arabidopsis thaliana with 12 samples.

Results

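Accessible chromatin at transfer RNA (tRNA) genes of Arabidopsis thaliana was followed in roots that regrow a removed tip. Members were the regions of the authors' 14 h table whose nearest gene is typed as tRNA, or is described as a tRNA or tRNA precursor and not as an enzyme acting on tRNA, at a distance of at most 500 bp from the gene start. The rule took 243 of the 136930 regions in that table. Of these, 240 lay at 197 tRNA genes, and all 197 carry the biotype tRNA in RefSeq. The other 3 lay at protein-coding genes for tRNA-splicing endonuclease subunits and are given separately. A further 2259 regions of the table carry no gene name, 530 of them within 500 bp of a start, and were not members.

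A tRNA gene is a short gene read by RNA polymerase III. Its promoter lies inside the transcribed part, in elements called the A box and the B box. The factor TFIIIC binds these boxes and brings in TFIIIB, which recruits the polymerase just upstream of the start. The tRNAs made are then charged by aminoacyl-tRNA synthetases, and the demand for them follows the rate of protein synthesis in growing and dividing cells.

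ATAC-seq marks open DNA by the insertion of adapters with the transposase Tn5. Each of 4 groups held 3 libraries from roots aged 7 days after sowing (DAS). The uncut group was the Col-0 accession, from a root piece of matching size, with protoplasts sorted on 1 µM DAPI stain and 50000 nuclei per library. The groups at 2.5 h, 14 h and 16 h after removal of about 130 µm of tip were from an MP::MP-GFP line, in which the MONOPTEROS (MP) promoter drives an MP-GFP fusion. They were sorted on GFP from the roughly 200 µm next to the cut, at 1000 nuclei per library (2000 in 16 h replicate 3). Excision cannot be told apart from plant line, sorting marker or nuclei used in any comparison with uncut roots. Nothing in the labels ties the replicates to separate sowings or plants, so a p-value here covers the spread between libraries alone, which may be technical.

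Uncut libraries held 31.8, 25.3 and 22.5 M reads in regions. Depth was lower in the MP::MP-GFP libraries, with 4.78, 2.90 and 1.83 M reads at 2.5 h, 11.3, 10.7 and 17.3 M reads at 14 h, and 1.69, 2.35 and 1.44 M reads at 16 h. The summed level over 11 regions of MP was 307 ± 10.9 CPM (read counts scaled to the size of each library) at 14 h, against 107 ± 3.60 CPM in uncut roots (SD, n = 3 each). It was 252 ± 70.3 CPM at 2.5 h and 277 ± 58.0 CPM at 16 h. Reads of the MP::MP-GFP transgene, which Col-0 lacks, can fall on these regions, so their level is no check of the sort. Over the 128 tRNA regions listed with the same coordinates in all 4 groups, pairs of uncut replicates correlated at 0.90 to 0.94 (Spearman). The pairs of 2.5 h gave -0.004 to 0.13, those of 14 h gave 0.25 to 0.43 and those of 16 h gave 0.26 to 0.47. Over all shared regions the pairs gave 0.93 to 0.96 in uncut roots, 0.27 to 0.31 at 2.5 h, 0.56 to 0.65 at 14 h and 0.48 to 0.51 at 16 h. These correlations are across regions of unequal width within a library, and are a description only.

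Most regions were narrow and many did not sit on the tRNA gene itself. Their median width was 83 bp (1 to 557 bp), against 117 bp over the whole table, and 8 were at most 10 bp wide. The authors' annotation put 187 of the 240 in a promoter and 53 at a transcript end. It gave 111 regions to the tRNA gene itself and 95 to a neighbouring protein-coding gene, so that in those 95 the open DNA cannot be assigned to the tRNA gene alone. A further 28 went to an Ensembl noncoding RNA identifier, 3 to another tRNA gene and 3 to a long noncoding RNA. Of the genes, 164 had 1 region, 24 had 2, 8 had 3 and 1 had 4.

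A set of 9 regions at 7 genes is described separately, because it lies on chromosome 2 between positions 3200000 and 3700000 (TAIR10), where a large copy of the mitochondrial genome is inserted in the nuclear DNA. The other 231 regions, at 190 genes, are described first, and the fits below count them alone. Shares of genes, and counts over all 240 regions, include the insertion. Among them, 40 lay between 25 bp upstream and 100 bp downstream of the start, where the short gene body lies. Regions were thinner on both flanks, with 23 from 150 to 26 bp upstream and 33 in the next 150 bp downstream of it.

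**Figure D1:**
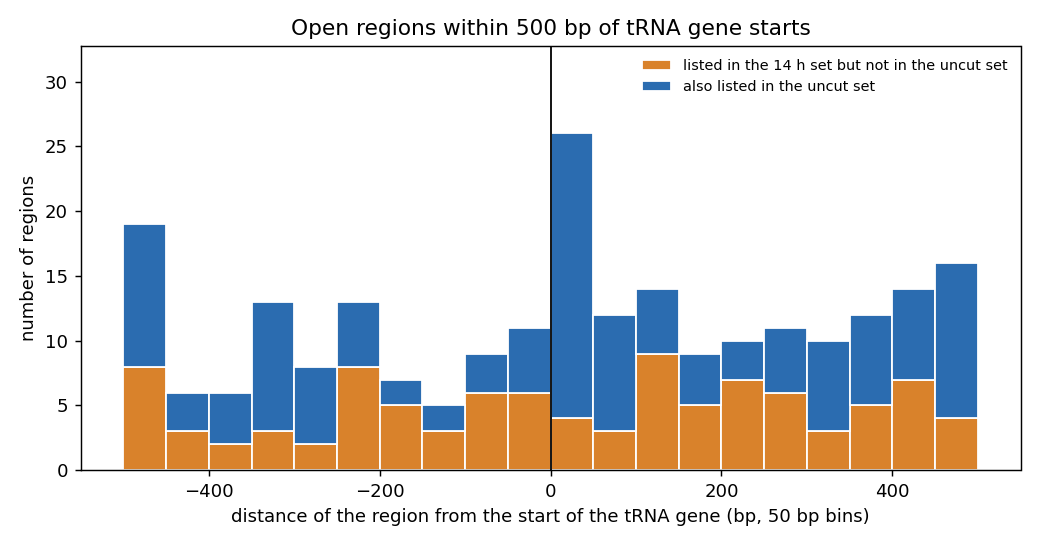
Number of regions outside the insertion by their distance from the start of the tRNA gene (bp, 50 bp bins), split by whether the region is also listed for uncut roots. Of the 40 regions from 25 bp upstream to 100 bp downstream, 32 were also in the uncut set.

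Not every tRNA gene had a region. RefSeq lists 625 tRNA genes on the nuclear chromosomes, and 197 of them (31.5%) had one, 7 of these in the insertion. In runs of at least 5 neighbouring tRNA genes the share was 7 of 110 (6.36%), and among all other tRNA genes it was 190 of 515 (36.9%). A region counts for its nearest gene alone. In a run, a gene counted as without a region can thus lie beside one, as AT2G33900 does beside the region of AT2G33890. What this adds to the lower share in runs was not tested. The share was 39 of 238 genes on chromosome 1, 40 of 95 on chromosome 2, 34 of 92 on chromosome 3, 34 of 77 on chromosome 4 and 50 of 123 on chromosome 5. Without the runs, it was 36 of 137 on chromosome 1 and 36 of 86 on chromosome 2.

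The longest run lies on chromosome 1. It holds 81 genes from AT1G56730 to AT1G57530, 54 for tyrosine and 27 for serine, and 0 of them had a region at any distance. Between the nearest regions assigned to the flanking genes AT1G08147 and AT1G57540 lay 42.0 kb. Within it, a stretch of 40.7 kb held no region in the uncut, 2.5 h, 14 h or 16 h set. Chromosome 1 held on average 116 regions per 100 kb in the 14 h set and 90.3 in the uncut set. The other runs are all of proline tRNA genes. Of the 9 genes from AT1G28720 to AT1G28810, 2 had a region, as did 1 of the 11 from AT1G28820 to AT1G28920 and 4 of the 9 from AT2G33890 to AT2G33970. Whether reads from these near-identical copies could be placed was not tested, and no source used here says how reads with several matches were treated.

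The share of genes with a region also differed between amino acids. It was highest for lysine, at 17 of 30 genes (56.7%), and methionine, at 13 of 24 (54.2%). It was lowest for tyrosine, at 9 of 75 (12%), and aspartate, at 4 of 26 (15.4%). Of the tyrosine genes, 54 lie in the run on chromosome 1, and 2 of the 9 with a region lie in the insertion. Aspartate has none in a run. No test was made of these shares, since genes of 1 family share sequence.

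**Figure D2:**
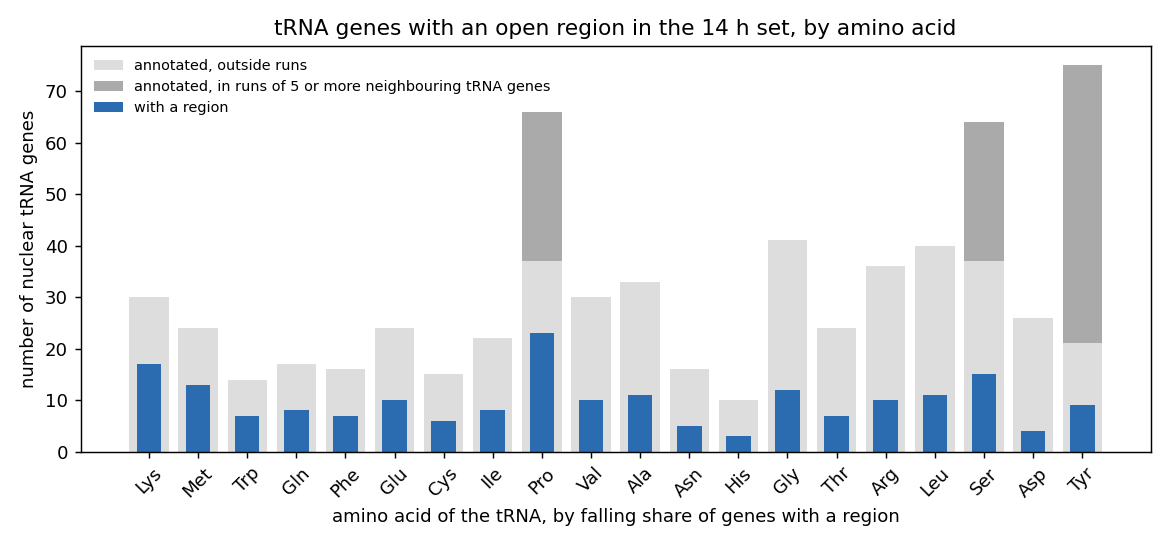
Number of nuclear tRNA genes for each amino acid (grey, darker for genes in runs) and number with a region in the 14 h set (blue). Tyrosine has 75 genes and 9 with a region, whereas lysine has 30 and 17.

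Many of these regions were not listed for uncut roots. Of 240, 133 (55.4%) had the same coordinates in the uncut set, against 101674 of 136930 in the whole table (74.3%) and 22876 of 33364 regions within 500 bp of protein-coding starts (68.6%). Of the 107 others, 88 overlapped no region of the uncut set at all, as did 29960 of the 35256 others in the whole table. That is 36.7% of the 240, against 21.9% of the whole table and 26.1% at protein-coding starts. The share with the same coordinates depended on width. Among regions of 1 to 40 bp it was 6.12% at tRNA genes and 14.0% in the whole table, from 41 to 80 bp it was 50.8% and 57.2%, and from 81 to 150 bp it was 80% and 89.2%. In the next wider class, with a median width of 193 bp at tRNA genes, it was 72.3% and 91.7%, and without the insertion 80.5% at tRNA genes. In the widest class, with a median width of 367 bp at tRNA genes, it was 7 of 9 at tRNA genes, against 93.2% in the whole table, and 7 of 7 at tRNA genes without the insertion. At protein-coding starts it was 9.05%, 45.2%, 84.6%, 88.9% and 91.1%, from the narrowest class to the widest. The share at tRNA genes was above this from 41 to 80 bp and, without the insertion, in the widest class, and below it elsewhere. At the gene body (25 bp upstream to 100 bp downstream) 32 of 40 regions (80%) were also in the uncut set, against 9 of 23 just upstream and 12 of 33 just downstream. The 16 h files list the same regions as the uncut files, so the set of 16 h is no separate evidence.

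In uncut roots the level at tRNA genes was near that of other regions. The median over the 128 shared regions was 58.3 CPM per kb, against 59.1 over all shared regions and 61.2 at protein-coding starts. It ran from 56.5 CPM per kb at the gene body to 65.7 just upstream of it. The highest level per kb was at AT4G22754, a lysine tRNA gene, at 1563 CPM per kb. That region is 1 bp wide, so the value per kb is inflated. Next came AT2G07746 in the insertion, at 1099 CPM per kb. Below it stood AT4G39985, for isoleucine, at 123 CPM per kb, in the promoter of RABA4B, which codes for a small GTPase of secretory traffic. AT1G48080 for lysine stood at 113, AT3G15585 for phenylalanine at 109.5, and AT4G29415 for proline at 92.6 CPM per kb. The region of AT3G15585 lies in the promoter of APG8H, an autophagy gene. The lowest were AT3G03845 for tryptophan at 39.2, AT2G33910 for proline at 40.9 and AT5G41265 for cysteine at 42.3 CPM per kb.

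Summed over the 128 shared regions, the level was 1023 ± 37.8 CPM in uncut roots. It was 782 ± 154 CPM 2.5 h after excision, 1229 ± 62.0 CPM after 14 h and 1101 ± 86.2 CPM after 16 h (SD, n = 3 each). The median region held 6.25 ± 0.35 CPM in uncut roots, and 3.87 ± 2.01, 8.40 ± 0.32 and 7.36 ± 0.03 CPM after 2.5, 14 and 16 h. All 14 h and 16 h libraries lay above all uncut libraries in this median. The same held over all shared regions, with medians of 8.48 to 8.63 CPM at 14 h and 8.16 to 8.39 CPM at 16 h, against 7.91 to 7.95 CPM in uncut libraries. The 3 libraries of 2.5 h differed most among themselves, with medians of 5.94, 3.76 and 1.92 CPM. No shared tRNA region was without reads in an uncut library. Of the 128, 29, 46 and 55 had 0 reads in the libraries of 2.5 h. These are 22.7%, 35.9% and 43.0%, against 28.3%, 27.4% and 37.3% of all shared regions. After 14 h it was 4, 1 and 1 regions, and after 16 h 3, 10 and 1.

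**Figure D3:**
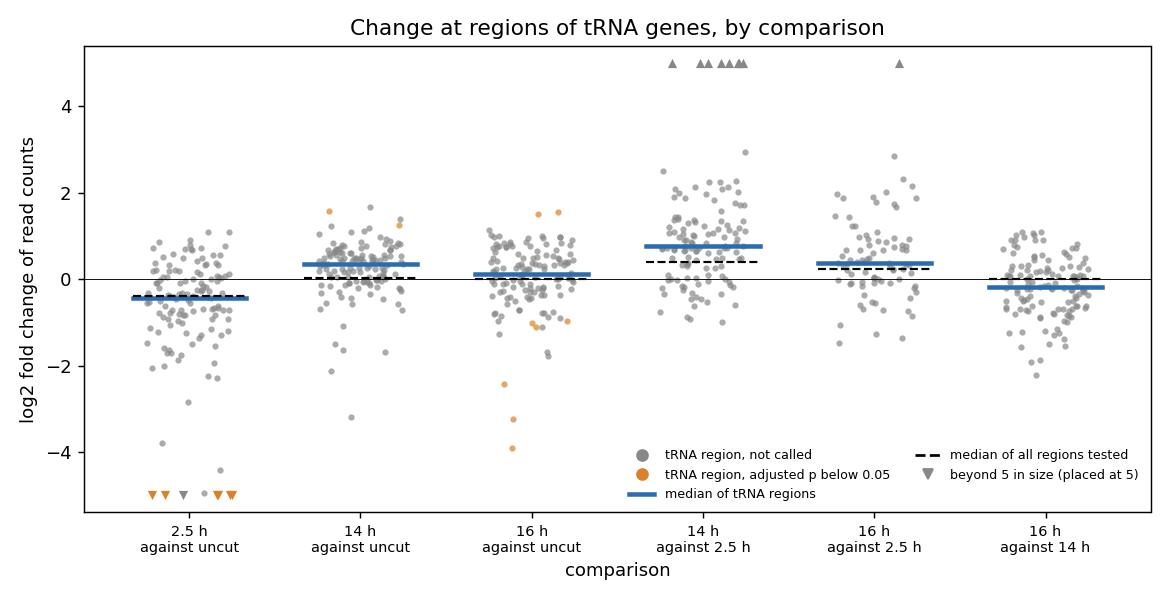
Log2 fold change of each tRNA region outside the insertion (points) in the 6 comparisons, with the median of the tRNA regions (blue line) and of all regions tested (dashed line). Triangles are changes beyond 5 in size, and orange marks an adjusted p below 0.05. The blue line lies above the dashed one at 14 h against uncut (0.35 and 0.04) and below it at 16 h against 14 h (-0.19 and -0.01).

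At 2.5 h against uncut roots, 6 tRNA regions were lower and 0 were higher of 128 tested (edgeR quasi-likelihood test, Benjamini-Hochberg adjustment over all regions, adjusted p under 0.05). Over all regions 7.71% were called lower and 0.0463% higher. At protein-coding starts, 1123 of 22180 were called lower and 17 higher. Members and protein-coding starts are all in the 14 h set, whereas all regions, here and at 16 h, include some that it lacks. At an unadjusted p under 0.05, 12 tRNA regions were lower and 0 higher. For counts at an unadjusted p, here and below, the share of all regions is not given, so they have no background. DESeq2 called 3 tRNA regions lower and 0 higher (5.62% and 0.29% of all regions). The median log2 fold change was -0.43, against -0.38 over all regions and -0.33 at protein-coding starts. All 3 libraries of 2.5 h lay below all uncut libraries at 29 regions (22.7%) and above them at 2 (1.56%). Over all regions of the same coordinates in both groups, 26.7% lay below and 3.32% above.

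The 6 regions that fell were those with 0 reads in all 3 libraries of 2.5 h. That is 4.69% of the 128 shared regions, against 7.31% of all shared regions and 4.55% of those at protein-coding starts. They were narrow, with a median width of 74 bp. The region of AT1G60840, a glycine tRNA gene, lies 58 bp from the start (chromosome 1, 22397548 to 22397661) and had 0 CPM in each 2.5 h library, against 5.85, 5.61 and 6.62 CPM in uncut libraries. It was at least 17.8-fold lower (adjusted p = 0.017, edgeR), taking 3 counts over the group as the floor. This floor, here and below, covers counting error alone and not the spread between libraries. In single 2.5 h libraries, 27.4% to 37.3% of all shared regions had 0 reads, so these folds are no lower bound on a change. AT4G20115 for threonine had 0 CPM in each 2.5 h library, against 3.95, 6.34 and 5.70 CPM in uncut libraries, at least 15.8-fold lower (adjusted p = 0.016, edgeR). Its region lies in the promoter of PTAC14, which codes for a protein of the plastid transcription machinery.

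The others that fell were AT5G32017 for aspartate, AT4G13445 for glutamate, AT2G33890 for proline and AT4G22754 for lysine. They had 0 CPM in every 2.5 h library, against uncut means of 4.96 ± 1.02, 4.56 ± 0.34, 4.24 ± 0.56 and 1.56 ± 0.56 CPM (SD, n = 3). They were at least 14.7-fold, 13.5-fold, 12.5-fold and 4.62-fold lower by the same floor. The region of AT2G33890 belongs to the run of proline genes on chromosome 2 and lies in the promoter of the next gene of the run, AT2G33900. In the higher direction none passed, and the smallest p values belonged to AT1G15090 for asparagine, AT3G51135 for glutamate and AT1G06480 for isoleucine. AT1G15090 had 11.6, 10.9 and 21.99 CPM at 2.5 h, against 7.79, 10.2 and 9.73 CPM in uncut roots (adjusted p = 0.83, edgeR).

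The count at 2.5 h hung on single libraries. For fits without 1 library, here and below, the share of all regions called is not given, so counts in them have no background. Without replicate 1, 2 or 3 of 2.5 h, 24, 18 and 14 regions were lower and 0, 2 and 1 higher. Their medians were then -0.85, -0.40 and -0.36, against -0.51, -0.52 and -0.40 over all regions, so the side of the background on which the tRNA regions lay depended on the library. The fit with all 12 libraries called 9 lower and 0 higher (8.13% and 0.0435% of all regions). The call of AT4G22754 was lost without any 1 of these libraries (adjusted p = 0.21, 0.14 and 0.082, edgeR), and that of AT1G60840 without uncut replicate 1 or 2 (adjusted p = 0.051 and 0.063, edgeR). Scaling moved the median of all regions from -0.38 with TMM to -0.06 with total counts, and that of tRNA regions from -0.43 to -0.11, so changes at 2.5 h are relative to TMM.

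At 14 h against uncut roots, 2 of 132 tRNA regions rose and 0 fell by edgeR, where 0.766% of all regions were called higher and 5.24% lower. At an unadjusted p under 0.05, 16 were higher and 4 lower, again without a share over all regions. DESeq2 called 11 higher and 3 lower, against 7.17% and 11.6% of all regions. The median log2 fold change was 0.35, against 0.04 over all regions and 0.11 at protein-coding starts, and 96 of 132 were positive. In 26 regions (19.7%) all 14 h libraries lay above all uncut libraries, and in 10 (7.58%) they lay below, against 13.8% and 18.8% of all regions and 16.2% and 13.7% at protein-coding starts.

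AT5G18085, a tryptophan tRNA gene, had 11.8, 10.8 and 10.9 CPM at 14 h, against 4.62, 4.59 and 4.63 CPM in uncut roots. Its region (chromosome 5, 5984626 to 5984675) lies 273 bp downstream of the start, in the promoter of the protein-coding gene AT5G18090. It rose by 1.25 ± 0.25 on the log2 scale (SE, adjusted p = 0.028, edgeR), and the groups did not overlap. At 2.5 h the same region had 12.6, 0 and 0 CPM. At 16 h it had 4.90, 4.90 and 7.39 CPM, each above the uncut libraries.

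AT5G01365, an alanine tRNA gene, had 10.5, 8.04 and 15.9 CPM at 14 h, against 3.60, 3.80 and 3.93 CPM in uncut roots. Its region (chromosome 5, 150397 to 150477) lies 10 bp upstream of the start. It rose by 1.58 ± 0.33 on the log2 scale (SE, adjusted p = 0.034, edgeR). At 16 h it had 4.90, 0 and 4.93 CPM, which overlaps the uncut libraries.

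None fell past the threshold. The smallest p values in that direction belonged to AT4G01355 for valine, with 0, 1.84 and 1.42 CPM at 14 h against 9.80, 9.51 and 10.9 CPM in uncut roots (log2 fold change -3.19, adjusted p = 0.060, edgeR), and to 2 regions of AT1G43820 for aspartate (-1.65 and -1.69, adjusted p = 0.083 and 0.087, edgeR). Both regions of AT1G43820 had all 14 h libraries below all uncut libraries.

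Both calls at 14 h were lost when any 1 of the 3 uncut libraries was left out. Without replicate 1, 2 or 3 of 14 h, 7, 6 and 5 regions were higher and 5, 1 and 2 lower. In the fit with all 12 libraries 0 were called in either direction (0.0182% of all regions higher, 2.31% lower).

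**Figure D4:**
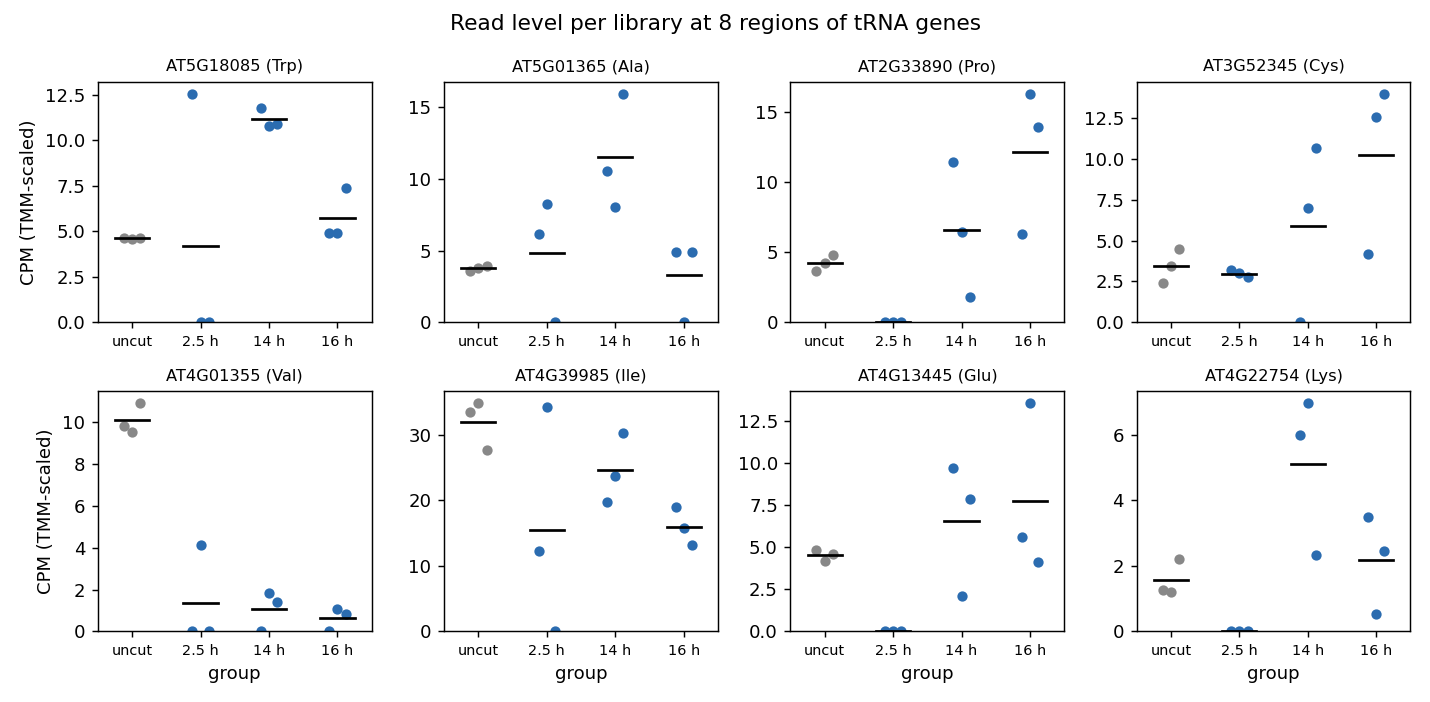
Level in CPM of 8 regions at tRNA genes, 1 point per library and a line at the mean, for uncut roots and 2.5 h, 14 h and 16 h after excision. At AT5G18085 the 3 libraries of 14 h sit between 10.8 and 11.8 CPM, above the uncut libraries, and at AT4G13445 and AT2G33890 all libraries of 2.5 h are at 0.

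At 16 h against uncut roots, 2 tRNA regions rose and 6 fell of 132, where 3.07% of all regions were called higher and 6.59% lower (edgeR). DESeq2 called 9 higher and 8 lower (7.59% and 9.84% of all regions). At protein-coding starts, 645 of 22867 were called higher and 969 lower by edgeR. The median log2 fold change of tRNA regions was 0.13, against 0.01 over all regions and 0.07 at protein-coding starts, and 76 of 132 were positive.

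Both regions that rose lie downstream of the gene start. AT2G33890 for proline had 6.30, 16.3 and 14.0 CPM at 16 h, against 3.68, 4.24 and 4.79 CPM in uncut roots. It rose by 1.52 ± 0.37 on the log2 scale (SE, adjusted p = 0.025, edgeR), and all 16 h libraries were above all uncut ones. AT3G52345 for cysteine had 4.197, 12.5 and 14.0 CPM at 16 h, against 2.41, 3.46 and 4.46 CPM in uncut roots, so the groups overlapped. It rose by 1.55 ± 0.44 (SE, adjusted p = 0.048, edgeR), in a region at the transcript end of SPP2, which codes for a sucrose phosphatase.

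Of the 6 that fell, AT4G01355 for valine had the smallest p. Its region (chromosome 4, 562039 to 562258) lies 486 bp downstream of the gene start and is annotated to the transcript end. It had 0, 1.09 and 0.82 CPM at 16 h, against 9.80, 9.51 and 10.9 CPM in uncut roots. The log2 fold change was -3.92 ± 0.60 (SE, adjusted p = 0.0021, edgeR). The region was near 0 in most libraries of the MP::MP-GFP line, with 0, 4.13 and 0 CPM at 2.5 h. Beside this, AT2G23650 and AT4G31695, both methionine tRNA genes with the region over the gene body, fell by 3.23 ± 0.77 and 2.44 ± 0.61 on the log2 scale. The region of AT4G31695 is also annotated to the promoter of the protein-coding gene AT4G31690. AT2G23650 had 0.70, 0 and 0.82 CPM at 16 h, against 3.91, 4.68 and 4.09 CPM in uncut roots. AT4G39985 for isoleucine, AT2G27560 for lysine and AT4G26225 for proline had wider regions, from 260 to 299 bp, each in the promoter of a protein-coding gene. They fell by 1.02 ± 0.25, 1.10 ± 0.29 and 0.97 ± 0.26.

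All 6 lie on chromosomes 2 and 4. Over all regions, 10.8% and 10.96% were called lower at 16 h on chromosomes 2 and 4, against 7.84% on chromosome 1, 3.40% on chromosome 3 and 1.94% on chromosome 5. Without replicate 1, 2 or 3 of 16 h, 6, 0 and 5 regions were higher and 8, 4 and 9 lower. Without any 1 of the uncut libraries, 0 were higher and 1 lower. The fall of AT4G01355 was called whichever library was left out. Without 16 h replicate 2 the calls of AT2G33890, AT3G52345, AT2G23650 and AT2G27560 were lost, without replicate 1 those of AT2G27560 and AT4G26225, and without replicate 3 those of AT3G52345 and AT4G31695. With all 12 libraries in the fit 0 were called (0.0162% of all regions higher, 1.49% lower).

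The times were also compared with each other, within the same line and sort. At 14 h against 2.5 h, 0 of 125 tRNA regions were called in either direction, and neither was any of all regions (0% and 0%). At an unadjusted p under 0.05, 8 were higher and 0 lower. DESeq2 called 2 higher (1.47% of all regions higher, 0.0421% lower), and a fit with all 12 libraries called 9 higher and 0 lower (4.45% and 0.095% of all regions). The median log2 fold change was 0.77, against 0.39 over all regions, and 100 of 125 were positive. Without 2.5 h replicate 1 it was 1.18, against 0.50 over all regions. AT4G22754, AT4G20115 and AT4G13445, at 0 in all 2.5 h libraries, had the smallest p values. AT4G13445 for glutamate had 9.71, 2.11 and 7.88 CPM at 14 h, against 0 CPM in each library of 2.5 h (adjusted p = 0.24, edgeR).

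At 16 h against 2.5 h, 84 tRNA regions passed the filter on low counts and 0 were called, as over all regions (0% and 0%). At an unadjusted p under 0.05, 1 was higher and 0 lower. DESeq2 called 1 higher (0.721% of all regions higher, 0.00295% lower), and the fit with all 12 libraries called 8 higher and 0 lower (4.14% and 0.0667%). The median log2 fold change was 0.37, against 0.24 over all regions and 0.27 at protein-coding starts. It was 0.61 without 2.5 h replicate 1 and 0.35 without 2.5 h replicate 2, against 0.32 and 0.33 over all regions, and 0.21 with total counts, against 0.06. AT2G33890 had the smallest p, with 6.30, 16.3 and 14.0 CPM at 16 h, against 0 CPM in each library of 2.5 h (adjusted p = 0.83, edgeR).

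At 16 h against 14 h, 0 of 128 tRNA regions were called (0.00104% of all regions higher, 0% lower), with 0 higher and 5 lower at an unadjusted p under 0.05. DESeq2 also called 0, beside 0.001% of all regions higher and 0.001% lower. The median log2 fold change was -0.19, against -0.01 over all regions. AT4G26225 for proline had 9.09, 9.80 and 9.86 CPM at 16 h, against 21.2, 16.3 and 30.0 CPM at 14 h, and the groups did not overlap (log2 fold change -1.23 ± 0.46, SE, adjusted p = 1.00, edgeR). AT1G50100 for leucine had 2.10, 4.35 and 5.75 CPM at 16 h, against 18.7, 10.9 and 6.53 CPM at 14 h, with the same adjusted p.

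The fits above leave out regions that only the 14 h set lists. Whole reads recovered from the authors' normalized columns cover them. In that fit 86 of 230 tested regions were higher at 14 h and 7 lower, against 19% and 11.8% of all regions. Of the 98 tested that are not in the uncut set, 84 were higher (85.7%), against 72.2% of all such regions and 73.2% of those at protein-coding starts. Of the 132 that are, 2 were higher and 7 lower, against 0.796% and 15.6% of all such regions. The median log2 fold change of these 132 was -0.01, against -0.31 over all such regions. Regions that the 14 h set lists and the uncut set does not were listed for 14 h, so their direction is in part set by the listing. This fit also places shared regions 0.35 lower on the log2 scale than the fit of shared regions alone. In the authors' deposited table, 89 of the 231 regions were higher and 9 lower, against 19.9% and 14.5% of all regions. With the insertion included, 2 of the 133 regions in the uncut set were higher there and 10 lower. Of the 107 regions not in the uncut set, 91 were higher and 0 lower, and their direction is likewise in part set by the listing.

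Regions of 1 gene did not always move together in that fit. Of 31 genes with several regions outside the insertion, 3 had both higher and lower calls, and they are named because their values were seen. At these 3 genes every higher region is absent from the uncut set and every lower region is in it. Their opposite directions are thus in part set by the listing. AT1G43820 for aspartate had a region at 8.69 ± 3.11 CPM at 14 h and 1.29 ± 0.17 CPM in uncut roots, 256 bp downstream of the start. Its region 44 bp upstream had 2.97 ± 1.79 CPM at 14 h and 12.2 ± 1.56 CPM in uncut roots (SD, n = 3 each). AT4G39985 for isoleucine had a region of 29 bp with 6.70 ± 2.64 CPM at 14 h and 0.97 ± 0.27 CPM in uncut roots. A wider region 462 bp upstream of its start had 15.8 ± 3.80 CPM at 14 h and 26.7 ± 3.40 CPM in uncut roots. AT1G60840 for glycine had a region 115 bp upstream with 4.76 ± 2.04 CPM at 14 h and 1.52 ± 0.23 CPM in uncut roots. Its region 58 bp downstream had 1.83 ± 1.11 CPM at 14 h and 5.02 ± 0.39 CPM in uncut roots. AT4G15775 for lysine had 4 regions, the most of any tRNA gene, and all 4 were higher at 14 h, with log2 fold changes from 1.35 to 3.63. None of the 4 is in the uncut set.

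The 9 regions in the chromosome 2 insertion held the highest levels of all members at 14 h. They ran from 59.1 ± 18.2 CPM at AT2G07754 for serine to 405 ± 98.6 CPM at AT2G07792 for tyrosine at 14 h, and from 14.8 ± 8.87 to 436 ± 185 CPM in uncut roots (SD, n = 3 each). AT2G07748 for tryptophan had 148, 60.7 and 97.7 CPM at 14 h, against 5.00, 22.3 and 17.03 CPM in uncut roots. It differed by 2.80 ± 0.55 on the log2 scale (SE, adjusted p = 0.0058, edgeR). AT2G07746 for glutamine was the reverse, with 102, 69.3 and 91.5 CPM at 14 h against 137, 290.0 and 164 CPM in uncut roots, a log2 fold change of -1.16 ± 0.30 (SE, adjusted p = 0.020, edgeR). In the fit of shared regions alone AT2G07746 was not called. It is the only region of the 9 with the same coordinates in the uncut set. The others were drawn for 14 h, so their direction may be in part set by the listing. In all, 3 of the 9 were higher and 1 lower in the fit of the whole 14 h set, and the groups did not overlap at those 4. Uncut libraries differed widely among themselves here, with 20.6, 64.0 and 47.4 CPM at AT2G07754. Whether the reads come from mitochondrial DNA was not tested.

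**Figure D5:**
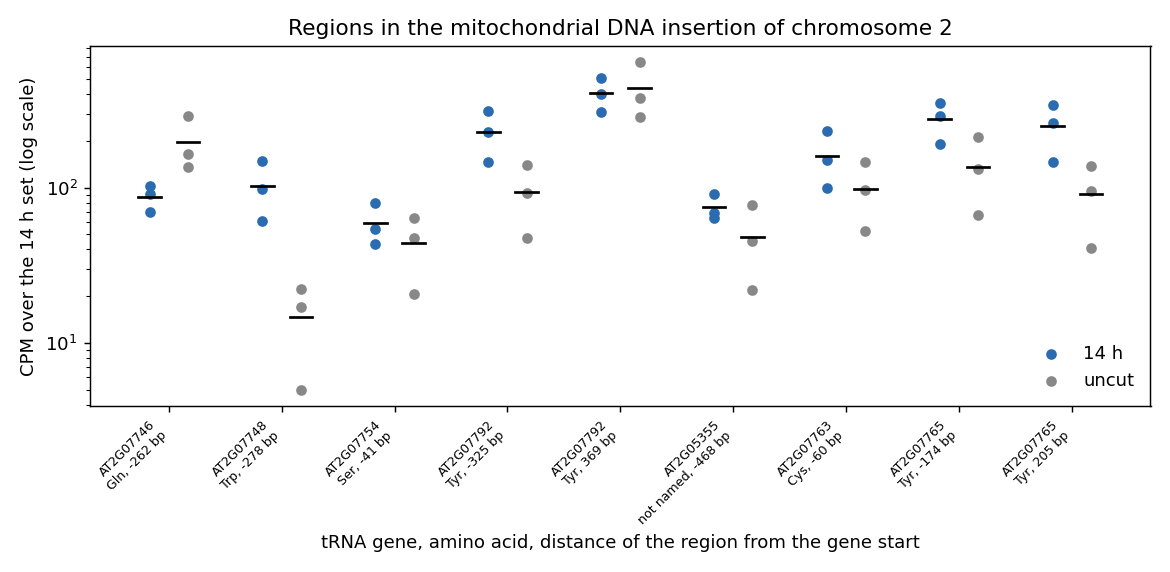
Level of the 9 regions of tRNA genes in the chromosome 2 insertion (CPM over the 14 h set, log scale), 1 point per library and a line at the mean, 14 h left and uncut right. The groups separate at 4 regions, with 14 h above uncut at 3 of them, among them AT2G07748, and below it at AT2G07746.

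Regions at genes for the enzymes that charge tRNAs and for the RNA polymerase III machinery were read beside them, from lists made by keyword. Of aminoacyl-tRNA synthetase regions, 0 rose and 2 fell of 71 at 2.5 h, 2 rose and 1 fell of 72 at 14 h, and 1 rose and 2 fell of 72 at 16 h against uncut roots. Their medians were -0.53, 0.18 and 0.15 on the log2 scale, against -0.38, 0.04 and 0.01 over all regions. Of all regions, 7.71%, 5.24% and 6.59% were called lower and 0.0463%, 0.766% and 3.07% higher at 2.5, 14 and 16 h. Of RNA polymerase III regions, 0 of 13 passed at 2.5 h and at 14 h, and 0 rose and 1 fell of 13 at 16 h. Between times 0 were called in either list. Without any 1 uncut library, both lists together gave 0 lower at 2.5 h, 0 higher and 0 lower at 14 h, and 0 higher and 2 lower at 16 h. Without replicate 1, 2 or 3 of 2.5 h, they gave 13, 14 and 9 lower, and 4 were higher at 14 h without any 1 of its libraries.

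AT3G16565, annotated as a threonyl and alanyl tRNA synthetase second additional domain protein, rose at 14 h in both of its regions. They had 15.2 ± 2.15 and 13.2 ± 2.58 CPM at 14 h, against 5.38 ± 0.47 and 5.39 ± 1.09 CPM in uncut roots (SD, n = 3 each), with log2 fold changes of 1.47 ± 0.24 and 1.26 ± 0.29 (SE, adjusted p = 0.012 and 0.046, edgeR). AT4G33760, a class II synthetase family gene, fell at 14 h, to 19.4 ± 1.24 CPM against 32.2 ± 3.02 CPM in uncut roots (adjusted p = 0.042, edgeR). AT1G66530, an arginyl-tRNA synthetase gene, rose at 16 h, with 14.3 ± 4.83 CPM against 5.38 ± 1.42 CPM in uncut roots (adjusted p = 0.029, edgeR).

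Several synthetase regions were at or near 0 in the MP::MP-GFP libraries. AT1G53705, a putative aminoacyl-tRNA ligase gene, had 0 CPM in all libraries of 16 h, against 9.72 ± 0.80 CPM in uncut roots. By the floor for counting error alone, this is at least 14.5-fold lower. AT1G27160, a valyl-tRNA synthetase-like gene, fell at 2.5 h in a region of 2 bp and at 16 h in another, and AT1G49930, an alanine-tRNA ligase gene, fell at 2.5 h. AT1G59453, a B-block-binding subunit of TFIIIC, which contacts the B box of tRNA genes, fell at 16 h to 0.23 ± 0.40 CPM, against 4.13 ± 0.14 CPM in uncut roots (adjusted p = 0.014, edgeR). These regions lie on chromosome 1.

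The 3 regions of tRNA-splicing endonuclease genes, whose enzyme removes introns from tRNA precursors, were all higher in mean at 14 h. AT3G02370 had a region at its start with 6.41 ± 0.69 CPM at 14 h, against 2.51 ± 0.11 CPM in uncut roots. A second region had 6.27 ± 1.62 CPM at 14 h, against 1.88 ± 0.62 CPM in uncut roots (SD, n = 3 each). Both rose in the fit of the whole 14 h set, by 1.36 ± 0.28 and 1.75 ± 0.39 on the log2 scale (SE, adjusted p = 0.0077 and 0.011, edgeR), and neither is in the uncut set. AT3G45577 had 6.63 ± 3.27 CPM at 14 h, against 3.52 ± 0.35 CPM in uncut roots, which did not pass (adjusted p = 0.15, edgeR). In the fit of shared regions at 2.5 h, the same region fell (adjusted p = 0.012, edgeR). It had 0 CPM in all 2.5 h libraries, against 4.22 ± 0.35 CPM in uncut roots, at least 12.5-fold lower by the floor for counting error alone.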

How the data were processed

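ATAC-seq libraries of root protoplasts were analysed as the authors deposited them. Each library has a file of read counts per region, deposited as whole numbers. The authors' 14 h table gives, per the file headers, a normalized signal per library, a log2 fold change and p-values from the authors' own comparison, and the nearest gene. Per the submitters' processing notes, Bowtie2, SAMtools, MACS2, DESeq2 and HOMER were used, on TAIR10, with no versions. For duplicate removal, counting settings and reads with several matches, nothing is given in the sources used here. Reads carry no molecular identifiers, so floors cover counting error only.

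Each of the 6 comparisons was fitted with edgeR 4.0.16 (R 4.3.3: TMM, filterByExpr, quasi-likelihood F test, Benjamini-Hochberg over all regions, adjusted p under 0.05) on regions with identical coordinates in both groups. Levels are CPM with TMM sizes over regions shared by the 4 groups. SEs were taken from the F statistic. The deposited signal was turned back into whole reads, with 100% of values whole at a tolerance of 0.01, and tested in the same way for the whole 14 h set. A count of 0 allows 3 counts. Scripts were tested on simulated data. Alternatives were DESeq2 1.42.0, other scalings, no filter, all 12 libraries in 1 fit, the replicate block and leaving out each library. The insertion, partner-list and recovered-read leave-one-out alternatives were chosen after seeing the data.

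The members and lists were chosen with earlier results of these data known. Named in each comparison were up to 8 regions per direction with the smallest p past the threshold, or, where none passed, up to 3 with the smallest p. The 6 highest and 3 lowest levels per kb in uncut roots, and up to 3 partner regions per direction, were also named. The gene table (RefSeq) served for names and neighbours only. No genome was used, so sequence features are not analysed here.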

Additional observations from a re-analysis of the deposited data

Results flagged for a closer look

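At 2 of the named regions, the libraries of a later time all lay above, and those of 2.5 h all lay below, the uncut libraries. The same held at tRNA regions not named above, such as those of AT1G65830 for serine and AT1G45246 for proline. Over all regions, 26.7% had all 2.5 h libraries below the uncut ones. All libraries lay above the uncut ones in 13.8% at 14 h and 12.4% at 16 h. The share of all regions with both was not drawn up. AT2G33890, a proline tRNA gene, averaged 12.2 ± 5.24 CPM at 16 h and 0 CPM at 2.5 h, against 4.24 ± 0.56 CPM in uncut roots (SD, n = 3 each). The direct comparison of 16 h with 2.5 h gave an adjusted p of 0.83 (edgeR). AT4G22754, a lysine tRNA gene, averaged 5.12 ± 2.45 CPM at 14 h and 0 CPM at 2.5 h, against 1.56 ± 0.56 CPM in uncut roots, in a region 1 bp wide. The direct comparison of 14 h with 2.5 h gave an adjusted p of 0.24 (edgeR). The 2.5 h libraries are shallow, and 89 of the 128 shared tRNA regions had 0 reads in at least 1 of them. Their depth was not tested as a part of these differences.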

How the results depend on the processing

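Against uncut roots, calls at tRNA regions depended on the test and on single libraries. The sign of each median against uncut roots, over all tRNA regions tested in a fit, held under all alternatives run. It did not hold for the shared regions in the fit of the whole 14 h set, given below. With DESeq2, 3 regions were lower at 2.5 h, 11 higher and 4 lower at 14 h (insertion included), 9 higher at 16 h, 2 higher at 14 h against 2.5 h and 1 higher at 16 h against 2.5 h. With all 12 libraries in the fit, 9 were lower at 2.5 h, 0 higher at 14 h, 0 higher and 0 lower at 16 h, 9 higher at 14 h against 2.5 h and 8 higher at 16 h against 2.5 h. The whole 14 h set gave 89 higher and 8 lower, with a median of 0.43. In that fit the 133 regions also in the uncut set had a median of -0.02, and those not in it had a median of 2.10. The replicate numbers did not pair the samples (correlations of same-numbered deviations from -0.036 to 0.007). With the replicate block, 0 were lower at 2.5 h, 0 higher at 14 h, and 0 higher and 1 lower at 16 h, with medians of -1.42, 0.23 and 0.031, and 1.60 at 14 h against 2.5 h.

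Leaving out 1 library gave from 0 to 2 higher and 4 to 24 lower at 2.5 h, 0 to 7 higher and 0 to 5 lower at 14 h, and 0 to 6 higher and 1 to 9 lower at 16 h. Medians, insertion included, ran from -0.86 to -0.37 at 2.5 h, 0.22 to 0.38 at 14 h, 0.050 to 0.22 at 16 h and -0.24 to -0.081 at 16 h against 14 h. For the whole 14 h set it gave 58 to 94 higher and 2 to 15 lower. AT3G51135 changed sign at 14 h against 2.5 h without 2.5 h replicate 3 (range -1.47 to 0.072 over the libraries left out), and AT2G33910 without 2.5 h replicate 1 (range -1.03 to 0.513). The cause was not tested.

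At partner genes (both lists together, with alternatives chosen after seeing the data), DESeq2 called 1 higher at 2.5 h, 5 higher and 7 lower at 14 h, and 8 higher and 5 lower at 16 h. DESeq2 size factors gave 1 higher at 2.5 h. Total counts gave 1 higher at 2.5 h, 0 lower at 14 h and 2 higher at 16 h. The replicate block gave 0 lower at 2.5 h, 0 higher and 0 lower at 14 h and 0 higher at 16 h. All 12 libraries gave 1 lower at 2.5 h, 0 higher and 0 lower at 14 h, and 0 higher and 0 lower at 16 h. The whole 14 h set gave 32 higher and 11 lower (19% and 11.8% of all regions). Leaving out 1 library gave 0 to 2 higher and 0 to 14 lower at 2.5 h, 0 to 4 higher and 0 to 5 lower at 14 h, and 0 to 3 higher and 2 to 6 lower at 16 h. Depth limits what 2.5 h and 16 h can show: 3 counts are 0.68 to 1.65 CPM in a 2.5 h library and 1.63 to 2.46 CPM in a 16 h library.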
